A study of Mus musculus with 6 samples.

Results

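The Hox cluster genes of the mouse were examined in whole uteri on postnatal day 21. Members were all genes in the deposited tables named Hox, a cluster letter from a to d and a number, which gave 39 of 20637 listed genes, namely 11 in the Hoxa, 10 in the Hoxb, 9 in the Hoxc and 9 in the Hoxd cluster. Poly(A) RNA had been sequenced from 3 floxed control uteri (Nat10 f/f) and 3 Nat10-deleted uteri (Nat10 d/d), all from female mice of that age, and the controls carried the floxed Nat10 allele too. The labels do not give the Cre line, the cells it acts in, the litters, or whether a library came from 1 animal or a pool, so the p-values measure the spread between these libraries only. Values are FPKM, that is, fragment counts scaled by transcript length and by the total mapped in the library, so levels of different genes are compared per length.

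Hox genes encode homeodomain transcription factors that lie in 4 clusters, and the number in the name places each gene in a paralogue group shared between the clusters. Within a cluster the order of the genes follows where they are expressed along the body axis, with low numbers towards the head and high numbers towards the tail. In the female reproductive tract Hoxa9 is known for the oviduct, Hoxa10 for the uterus, Hoxa11 for the uterus and cervix, and Hoxa13 for the cervix and upper vagina. Hoxa10 and Hoxa11 are needed for the uterus to receive an embryo, and Hox genes of paralogue groups 9, 10 and 11 act together in the formation of uterine glands. Nat10 encodes the enzyme that acetylates cytidines in RNA.

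The targeted gene was lower in every library labelled as deleted. Nat10 was 13.2, 16.4 and 9.95 FPKM in floxed controls 1, 2 and 3 and 5.57, 5.23 and 5.53 FPKM in Nat10-deleted uteri 1, 2 and 3, or 41.4% of the control mean, with no overlap (log2 change -1.11, SE 0.17; limma adjusted p 0.669). Depth, estimated from the lowest values, differed by at most 1.262 times between libraries. Nat10-deleted replicate 2 stood apart from the others: on the first principal component of all tested genes, which held 48.4% of the variance, its score was 40.2 and the other 5 lay between -25.1 and 4.61. Several results below are therefore also given without it. The uterus labels were checked against markers of other tissues. The 4 skeletal muscle markers summed to 36.0 to 56.1 FPKM, most of it Acta1 at 35.3 to 54.0, with Myh4 listed at 0 throughout. The 6 ovary markers, described further below, summed to 23.7 to 36.0. The 4 oviduct markers summed to 11.02 to 20.4 FPKM, most of it Pax2 at 9.32 to 15.3 and Ovgp1 at 0.817 to 6.42, and the cilia gene Foxj1 was at most 0.396. The 6 squamous markers of cervix and vagina summed to 5.05 to 8.11, most of it Krt10 at 2.92 to 4.36 and Sprr1a at 0.139 to 1.97, with Krt13 at 0.142 to 1.01 and Krt14 at 0 to 0.413. The 5 kidney and bladder markers summed to 4.13 to 7.93, nearly all of it the bladder gene Upk1b at 3.82 to 7.16, and the kidney genes Umod and Slc12a1 were listed at 0 in all 6 libraries. Floxed control 1 stood apart on 2 lists, with a sum of 51.0 for the 4 fat markers against 0.979 to 9.88 elsewhere, and of 5581 for the 5 blood markers against 709 to 2629 elsewhere.

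The uterus had a sharply bounded Hox profile. The highest levels were at Hoxa10 and Hoxa11, towards the high-numbered side of Hoxa, and at Hoxd8 to Hoxd10, in the middle of Hoxd, and the genes of groups 12 and 13 were at or near 0 in all 4 clusters. Of the 39 members, 12 had a mean of at least 10 FPKM over the 6 libraries, 15 lay between 1 and 10, and 12 lay under 1, of which 3 were listed at 0 in all libraries. Paralogue groups 9 to 11 together held 66.7% to 69% of the summed Hox FPKM, and Hoxa10 and Hoxa11 alone held 36.6% to 42.2%. Groups 12 and 13, with 6 genes, summed to 0 to 0.235 FPKM.

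**Figure D1:**
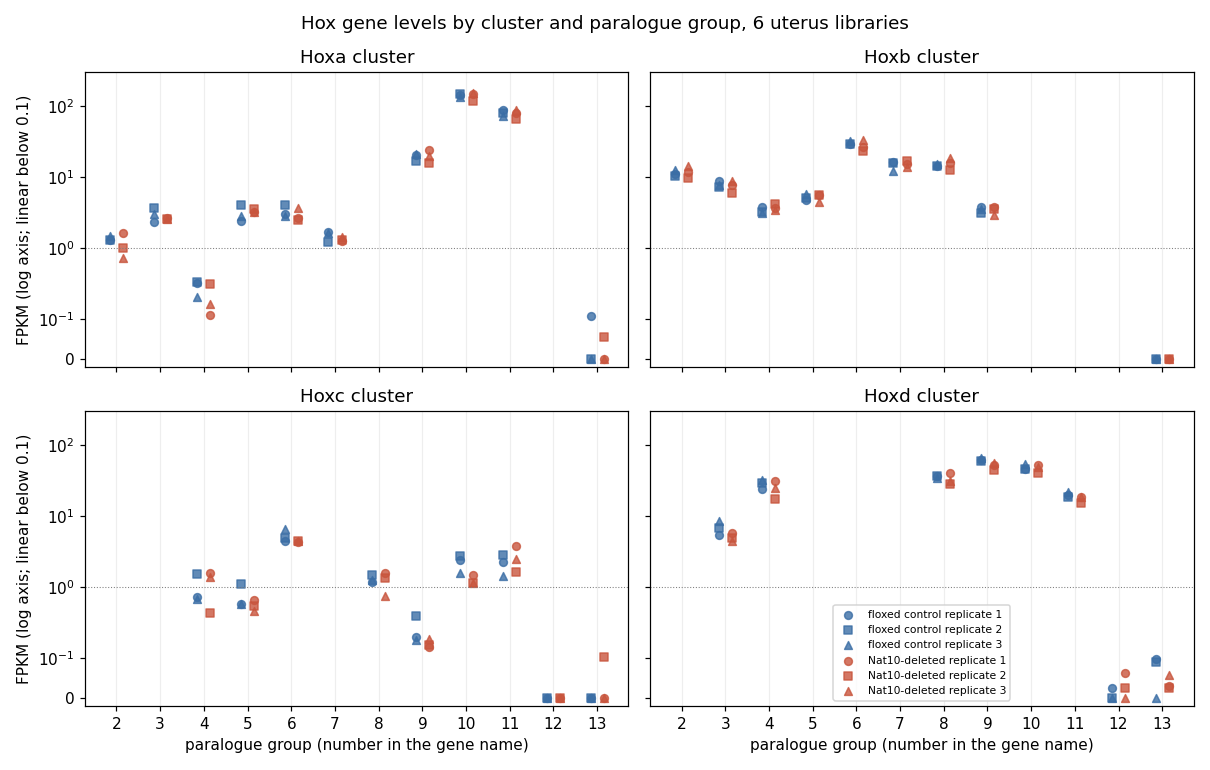
FPKM (vertical log axis, linear below 0.1) of the Hox genes of paralogue groups 2 to 13 against the group, in 4 panels for the 4 clusters. Each point is 1 library, blue for floxed control and red for Nat10-deleted, with the marker shape giving the replicate, and the dotted line is at 1 FPKM. Levels peak at Hoxa10 and at Hoxd9, and all libraries lie at or below 0.111 for every gene of groups 12 and 13.

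Promoters of the highest genes of the Hoxa and Hoxd clusters are shown beside those of the first gene beyond the boundary in each, since this contrast in level is the main feature of the profile. Each window runs from 250 bases before to 50 bases after an annotated start, taken from RefSeq on GRCm38.p6, and is written 5′ to 3′ on the gene's strand with every CpG dinucleotide in capitals. RefSeq gives Hoxa10 a pair of starts, and both are shown. Of the 39 members 22 had an entry, with 24 windows in all.
Hoxa10, chr6:52240805-52241104, minus strand: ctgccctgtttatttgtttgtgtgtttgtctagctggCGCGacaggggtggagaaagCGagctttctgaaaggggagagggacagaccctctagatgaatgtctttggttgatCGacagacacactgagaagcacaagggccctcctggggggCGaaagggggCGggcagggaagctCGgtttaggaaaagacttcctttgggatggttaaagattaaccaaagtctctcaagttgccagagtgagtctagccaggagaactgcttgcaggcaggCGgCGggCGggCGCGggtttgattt
Hoxa10, chr6:52234890-52235189, minus strand: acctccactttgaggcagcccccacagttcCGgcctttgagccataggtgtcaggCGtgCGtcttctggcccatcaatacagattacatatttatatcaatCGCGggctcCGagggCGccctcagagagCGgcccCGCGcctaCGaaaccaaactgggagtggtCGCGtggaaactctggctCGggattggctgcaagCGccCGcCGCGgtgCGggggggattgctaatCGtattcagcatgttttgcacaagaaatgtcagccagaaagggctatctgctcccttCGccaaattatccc
Hoxa11, chr6:52245761-52246060, minus strand: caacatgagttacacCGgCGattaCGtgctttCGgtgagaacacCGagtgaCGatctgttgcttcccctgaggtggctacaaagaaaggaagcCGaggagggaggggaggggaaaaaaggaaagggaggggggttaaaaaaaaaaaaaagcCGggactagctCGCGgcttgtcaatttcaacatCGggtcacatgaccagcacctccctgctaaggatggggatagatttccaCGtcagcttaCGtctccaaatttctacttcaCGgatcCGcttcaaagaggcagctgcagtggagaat
Hoxa13, chr6:52260831-52261130, minus strand: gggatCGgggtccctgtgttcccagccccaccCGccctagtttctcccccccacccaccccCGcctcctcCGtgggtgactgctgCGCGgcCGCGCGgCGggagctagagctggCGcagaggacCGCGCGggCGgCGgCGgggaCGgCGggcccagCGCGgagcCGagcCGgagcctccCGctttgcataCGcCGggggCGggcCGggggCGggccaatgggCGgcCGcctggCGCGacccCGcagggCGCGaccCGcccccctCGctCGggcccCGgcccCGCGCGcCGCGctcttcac
Hoxd9, chr2:74697513-74697812, plus strand: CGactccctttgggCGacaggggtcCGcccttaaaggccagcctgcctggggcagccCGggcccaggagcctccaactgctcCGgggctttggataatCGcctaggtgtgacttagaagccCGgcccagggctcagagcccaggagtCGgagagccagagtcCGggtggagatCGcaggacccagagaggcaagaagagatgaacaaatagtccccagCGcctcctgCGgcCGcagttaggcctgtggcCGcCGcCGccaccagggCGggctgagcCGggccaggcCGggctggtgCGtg
Hoxd12, chr2:74674763-74675062, plus strand: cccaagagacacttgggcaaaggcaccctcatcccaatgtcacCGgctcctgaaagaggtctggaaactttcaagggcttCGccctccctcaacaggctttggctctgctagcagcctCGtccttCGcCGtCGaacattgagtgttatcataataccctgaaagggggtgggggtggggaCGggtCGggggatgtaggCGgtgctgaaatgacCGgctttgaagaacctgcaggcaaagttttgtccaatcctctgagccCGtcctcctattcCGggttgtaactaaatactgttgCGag

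The windows differed in base composition. Those of Hoxa10 held 12 and 21 CpG dinucleotides, that of Hoxa11 held 15 and that of Hoxa13 held 45, at a GC content of 81%. Hoxd9 had 20, while Hoxd12, which was near 0 in these uteri, had 13. The median over the 24 Hox windows was 14.5 CpG, against 7 over all 32851 windows of the reference table. It was 14 for the 19 windows of members that passed the filter on low values and 29 for the 5 windows of members that did not, with ranges of 4 to 29 and 10 to 45. These are descriptions of sequence and were not tested against expression.

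Short motifs were searched on both strands, with overlapping matches counted. The letters TATAAA were in 4 of the 24 Hox windows (16.7%) and in 13.6% of all windows. CCAAT was in 15 (62.5%) against 37.4% of all windows, and GGTCA, the core of oestrogen and retinoid receptor sites, in 12 (50%) against 40.5%. TGATTNAT, the joint site of Hox and Pbx proteins, was in 2 Hox windows, those of Hoxa2 and of 1 start of Hoxd11, against 3.22% of all windows. Of the promoters printed above, Hoxa11 held 2 matches to GGTCA and Hoxd12 held 1, while both Hoxa10 windows, Hoxa13 and Hoxd9 held none.

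Hoxa10 was the highest Hox gene in every library. The gene (chr6:52231197-52240854 on the minus strand, ENSMUSG00000000938) stood at 144, 148 and 132 FPKM in controls 1, 2 and 3, and at 146, 116 and 151 in Nat10-deleted uteri 1, 2 and 3. It ranked 447th of the 20637 listed genes by mean level. Deleted replicates 1 and 3 lay above the control mean of 141 ± 7.93 FPKM (SD, n = 3), and deleted replicate 2 was the lowest of the 6.

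Hoxa11, its neighbour with 1251 bases between the annotated genes (chr6:52242106-52245810, minus strand), came second in every library. Its values were 86.7, 80.5 and 71.4 FPKM in controls and 80.4, 65.8 and 86.1 in deleted uteri. The ratio of Hoxa10 to Hoxa11 stayed between 1.66 and 1.85 over the 6 libraries. The annotation places an antisense gene, Hoxa11os, over 35% of the exonic bases of Hoxa11, and whether the quantification used strand is not given in the sources used here, so reads of this pair cannot be told apart.

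The boundary lies beyond Hoxa11. Hoxa13, 11883 bases further along the chromosome, was listed at 0 in 4 libraries and at 0.111 FPKM in floxed control 1 and 0.0548 in deleted replicate 2. Below Hoxa10 the decline was more gradual. Hoxa9, 107 bases away, was 20.4, 16.6 and 21.3 FPKM in controls and 24.2, 15.7 and 19.8 in deleted uteri. Hoxa7 was 1.7, 1.21 and 1.63 in controls and 1.26, 1.3 and 1.42 in deleted uteri. Every library had Hoxa10 above Hoxa11, Hoxa11 above Hoxa9, and Hoxa9 above Hoxa7.

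The other low-numbered Hoxa genes were weakly expressed. Hoxa5 was 2.4, 4.05 and 2.82 FPKM in controls and 3.2, 3.56 and 3.22 in deleted uteri. Hoxa6 was 3.03, 4.08 and 2.87 in controls and 2.65, 2.52 and 3.67 in deleted uteri. Hoxa3 was 2.31, 3.67 and 3.05 in controls and 2.67, 2.6 and 2.58 in deleted uteri. These 3 genes overlapped in range. Hoxa2 was 1.29, 1.31 and 1.47 in controls and 1.65, 1.01 and 0.729 in deleted uteri. Hoxa4, at 0.114 to 0.338, was under 1 FPKM in all libraries.

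The Hoxd cluster had the second highest sum, 193 to 214 FPKM in controls and 151 to 202 in deleted uteri, against 238 to 263 and 209 to 269 for Hoxa. Hoxd9 and Hoxd10, which with their Hoxa partners pattern the posterior trunk and limb, were its highest members. Hoxd9 (chr2:74697727-74700208, plus strand) was 60.7, 59.7 and 64.5 FPKM in controls and 52.5, 44.5 and 55.3 in deleted uteri. Hoxd10 was 45.6, 45.3 and 53.2 in controls and 52.9, 40.6 and 49.2 in deleted uteri. Hoxd9 exceeded Hoxd10 in 5 of 6 libraries, the exception being deleted replicate 1, and their ranges overlapped.

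Hoxd8 was 37, 37.2 and 34 FPKM in controls and 40.7, 28 and 30.8 in deleted uteri. Hoxd11 was 19.6, 18.4 and 21.6 in controls and 18.8, 15.5 and 18.3 in deleted uteri. Hoxd12, separated from Hoxd11 by 1851 bases, was at most 0.0623 FPKM, so the edge of the expressed domain lay between these neighbours. Hoxd13, known for the genital tubercle and digits, was 0 to 0.0986.

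At the low-numbered side, Hoxd4 was 24.3, 28.8 and 32.2 FPKM in controls and 30.9, 17.3 and 24.9 in deleted uteri, with deleted replicate 2 the lowest. Hoxd3 was 5.47, 6.82 and 8.55 in controls and 5.76, 4.96 and 4.44 in deleted uteri. These genes share 388 exonic bases on the same strand, 13.2% of those of Hoxd4. A further annotated gene on that strand, Gm28230, which has no row of its own in the values used here, covers 53.1% of the exonic bases of Hoxd3 and 39.1% of those of Hoxd4, so the split of reads between these genes is uncertain. Hoxd1 was 0 to 0.18.

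The Hoxb cluster peaked at a lower number. Hoxb6, a gene of the trunk, was 29.2, 29.2 and 32.5 FPKM in controls and 26.1, 23.3 and 33.2 in deleted uteri. Hoxb7 was 16.2, 15.9 and 12 in controls and 15.3, 16.8 and 14 in deleted uteri. Hoxb8 was 14.2, 14.3 and 15.2 in controls and 15.8, 12.4 and 18.7 in deleted uteri. Hoxb7 and Hoxb8 did not differ beyond their spread, each being the higher in 3 of 6 libraries. Hoxb2 was 10.9, 10.2 and 12.5 in controls and 11.9, 9.59 and 14.2 in deleted uteri. Hoxb3 was 8.67, 7.31 and 7.7 in controls and 7.8, 5.9 and 8.79 in deleted uteri.

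Both genes overlap the antisense gene Hoxb3os, over 27.3% of the exonic bases of Hoxb2 and 52.9% of those of Hoxb3. Hoxb5 was 4.82, 5.15 and 5.74 FPKM in controls and 5.54, 5.51 and 4.42 in deleted uteri. Hoxb4 was 3.82, 3.23 and 3.16 in controls and 3.71, 4.13 and 3.49 in deleted uteri. Hoxb9 was 3.85, 3.1 and 3.61 in controls and 3.83, 3.51 and 2.9 in deleted uteri. The ends of the cluster were not detected, as Hoxb1, a hindbrain gene, and Hoxb13, known for the prostate and tail bud, were listed at 0 in all 6 libraries.

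The Hoxc cluster was the lowest, with sums of 11.8, 15 and 12.2 FPKM in controls and 13.6, 9.84 and 11 in deleted uteri, or 1.96% to 2.69% of the Hox total. Hoxc6 was 4.45, 4.94 and 6.51 in controls and 4.33, 4.43 and 4.52 in deleted uteri. Hoxc11 was 2.3, 2.82 and 1.44 in controls and 3.85, 1.64 and 2.53 in deleted uteri. Hoxc10, whose product acts in the lumbar spine and hindlimb, was 2.4, 2.74 and 1.59 in controls and 1.47, 1.16 and 1.16 in deleted uteri. Hoxc10 and Hoxc11, at means of 1.75 and 2.43 FPKM, lay far below their Hoxa partners at 139.5 and 78.5, while Hoxc6, at 4.86, lay above Hoxa6 at 3.14. Hoxc8 was 1.19, 1.5 and 1.27 in controls and 1.61, 1.36 and 0.748 in deleted uteri. Hoxc4 was 0.727, 1.54 and 0.682 in controls and 1.58, 0.442 and 1.41 in deleted uteri. Hoxc5, at 0.469 to 1.11, and Hoxc9, at 0.147 to 0.389, did not pass the filter. Hoxc12 was listed at 0 throughout and Hoxc13 only in deleted replicate 2 at 0.103.

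In the order of levels over all 39 genes, most neighbours could not be separated. Hoxa10 lay above Hoxa11, and Hoxa11 above Hoxd9, without overlap of the 6 libraries. From Hoxd9 down to Hoxb2, which take ranks 3 to 12, each gene overlapped the next one in range.

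The comparison asked whether Hox levels differ in the uterus when Nat10 is deleted. No Hox gene passed the test. A gene was tested if it had at least 1 FPKM in at least 3 libraries, which kept 27 of the 39 members and 12640 genes in all. The test was limma on log2(FPKM + 1), with p-values adjusted over all genes tested and a threshold of 0.05. The share of all tested genes that passed was 0.0%, while 630 had an unadjusted limma p under 0.05, and the smallest adjusted p among the Hox genes was 0.922. Log2 changes of the 27 ranged from -0.50 to 0.19, and 22 were smaller than 0.2 in size. The other 12 members were too low to test, so the counts that follow cover the 27 and not the whole family.

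**Figure D2:**
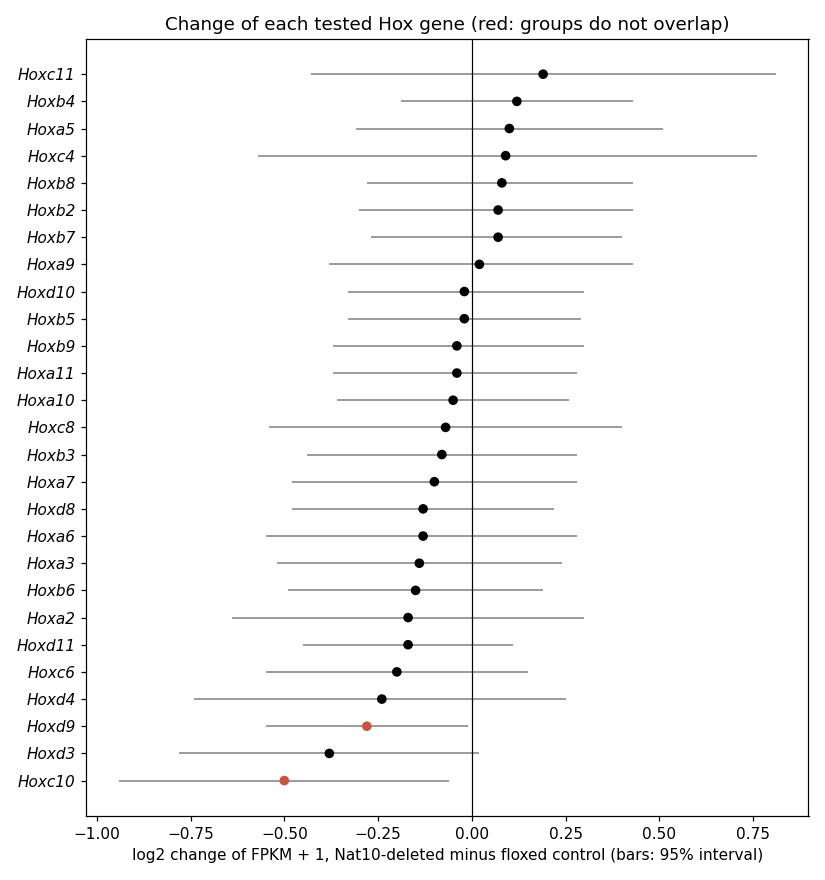
Log2 change of FPKM + 1 (horizontal axis, Nat10-deleted minus floxed control) for the 27 tested Hox genes, in order of size, with the 95% interval of the limma fit as bars. Red points mark Hoxc10 and Hoxd9, whose groups do not overlap, and the intervals of the other 25 genes include 0.

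The 2 genes of the uterus best known in this family had means close to control. Hoxa10 was 138 ± 19 FPKM in deleted uteri (SD, n = 3), or 97.4% of the control mean, with a log2 change of -0.05 and a 95% interval of -0.36 to 0.26. Hoxa11 had means of 79.6 ± 7.69 and 77.4 ± 10.5 FPKM (SD, n = 3) and a log2 change of -0.04 (95% interval -0.37 to 0.28). For both genes the control and deleted ranges overlapped, and the sign turned to 0.07 without deleted replicate 2. These intervals bound the difference at this replicate number, and do not show that the groups are alike.

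Hoxd9 was lower in all 3 deleted uteri than in any control. Its means were 61.6 ± 2.55 and 50.8 ± 5.58 FPKM (SD, n = 3), or 82.4% of control. The log2 change was -0.28 (SE 0.12; limma p 0.0455, adjusted p 0.922) and -0.19 without deleted replicate 2. Permutation of the libraries gave an exact two-sided p of 0.1, the smallest that 3 against 3 allows. Relative to its neighbour Hoxd10 within the same library, Hoxd9 stood at 1.33, 1.32 and 1.21 in controls and 0.992, 1.1 and 1.12 in deleted uteri, so this ratio did not overlap either. The ratio was chosen after the values were seen. Gm28309, an annotated gene on the same strand with no row of its own in the values used here, covers 5.73% of the exonic bases of Hoxd10. It also covers 10.8% of those of Hoxd11.

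Hoxc10 was the other member whose groups did not overlap. Its means were 2.24 ± 0.592 and 1.26 ± 0.175 FPKM (SD, n = 3), or 56.5% of control, with a log2 change of -0.50 (SE 0.19; limma p 0.0303, adjusted p 0.922) and an exact permutation p of 0.1. Without deleted replicate 2 the change was -0.47. At this low level the added 1 FPKM shrinks the log2 change, which was -0.75 with a pseudocount of 0.1. The gap between the groups was narrow, from 1.47 in the highest deleted uterus to 1.59 in the lowest control. Its neighbour Hoxc11 had the opposite sign, 0.19 (95% interval -0.43 to 0.81), or 0.40 without deleted replicate 2, with overlapping groups. Hoxc4 had a change of 0.09, or 0.36 without that library. The ratio of Hoxc11 to Hoxc10, also chosen after the values were seen, was 0.959, 1.03 and 0.906 in controls and 2.63, 1.41 and 2.17 in deleted uteri. Hoxc10 shares 8.7% of its exonic bases with Hoxc5 on the same strand.

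Thus 2 of the 27 tested Hox genes were lower without overlap and 0 were higher, where the share over all genes tested was 4.6% lower and 6.12% higher. The same 2 genes had an unadjusted limma p under 0.05, a level that 4.98% of all tested genes reached (2.3% lower and 2.68% higher). In 27 genes a count of 2 is near the background, and it was 0 for the unadjusted p without floxed control 2 and 0 without deleted replicate 2.

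The remaining Hoxd genes leaned the same way with overlapping groups. Hoxd3 had means of 6.94 ± 1.54 and 5.05 ± 0.666 FPKM (SD, n = 3) and a log2 change of -0.38 (limma p 0.0596, adjusted p 0.922), where only deleted replicate 1, at 5.76, reached into the control range. The change was -0.24 without floxed control 3 and -0.21 with libraries weighted by quality. The changes of Hoxd4 (-0.24), Hoxd11 (-0.17), Hoxd8 (-0.13) and Hoxd10 (-0.02) were smaller, and without deleted replicate 2 they were -0.03, -0.09, -0.02 and 0.09. Without deleted replicate 1, by contrast, Hoxd4, Hoxd8 and Hoxd10 were at -0.43, -0.29 and -0.10. All 6 tested Hoxd genes had a change below 0, although Hoxd4, Hoxd8 and Hoxd10 turned above 0 when libraries were weighted by quality (0.09, 0.10 and 0.12) and Hoxd10 also without deleted replicate 2 (0.09) or without floxed control 3 (0.06). Changes lay below 0 for 6 of 8 genes in Hoxa, 4 of 8 in Hoxb and 3 of 5 in Hoxc, and for 19 of the 27 together, against 43.4% of all genes tested. The other 8 Hox changes lay above 0, as did 56.6% of all genes tested. The median change was -0.21 for Hoxd, -0.07 for Hoxa, 0.02 for Hoxb and -0.07 for Hoxc, beside 0.03 over all tested genes. Without deleted replicate 2 the median was -0.06 for Hoxd, 0.00 for Hoxa, 0.04 for Hoxb and -0.12 for Hoxc, beside 0.02 over all tested genes. In that setting 15 of the 27 Hox changes lay below 0.

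The low values were most frequent in 1 library. Deleted replicate 2 was the lowest of the 6 libraries for 15 of the 27 tested Hox genes (55.6%), as it was for 25.7% of all genes tested. In the gene lists described below, it was the lowest for 45.5% of cofactor, 42.9% of Trithorax and 40% of Hoxa10- or Hoxa11-linked genes tested. For inducers and boundary factors, Polycomb genes and cluster neighbours the shares were 33.3%, 29.2% and 23.8%. The median of the 27 Hox genes relative to the control mean was -0.25 on the log2 scale in deleted replicate 2, and 0.06 and -0.05 in deleted replicates 1 and 3. In controls it was -0.03, -0.02 and 0.03. Hoxd4, at 17.3 FPKM in deleted replicate 2 against 24.3 to 32.2 elsewhere, and Hoxd9 were among the genes furthest below the control mean.

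**Figure D3:**
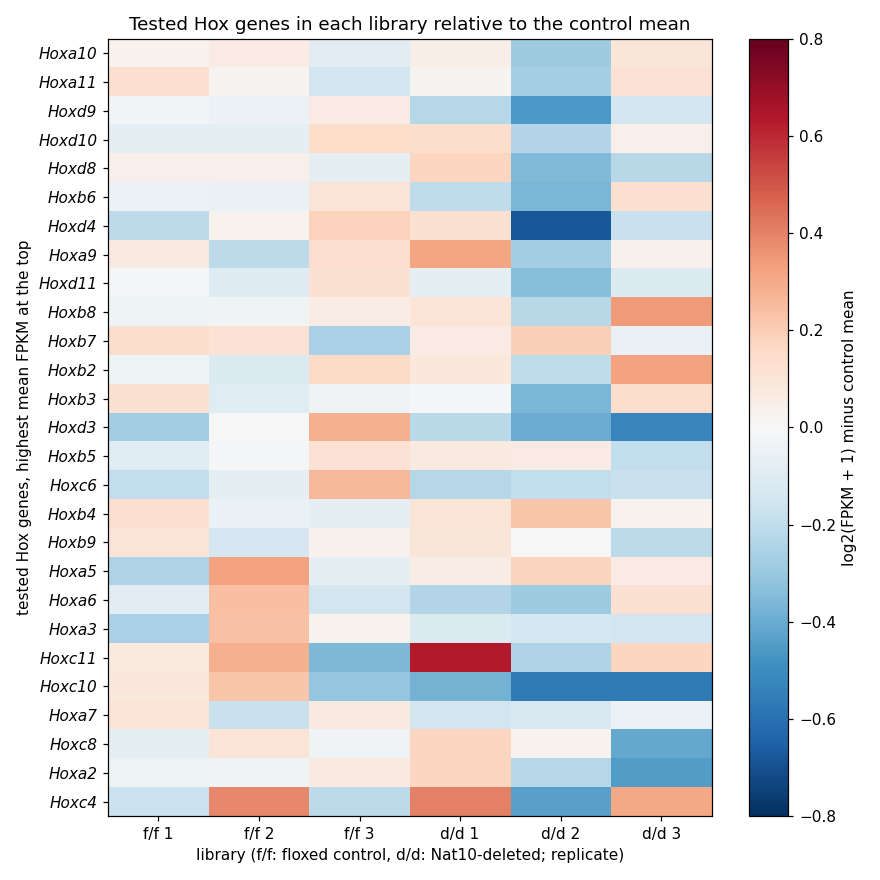
Each tested Hox gene (rows, highest mean at the top) in each library (columns, f/f for floxed control and d/d for Nat10-deleted), coloured by log2(FPKM + 1) minus the control mean of that gene. The column of deleted replicate 2 is blue in most of the upper rows, and its median is -0.25.

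Summed over the 39 genes, Hox FPKM was nearly the same in 5 of the 6 libraries. The sum was 559, 559 and 556 in controls and 567, 451 and 563 in deleted uteri, so that deleted replicate 2 alone stood apart. The mean of the deleted uteri was 94.4% of control with this library and 101.2% without it. The clusters held similar shares of the total in all libraries, with Hoxa at 42.7% to 47.8%, Hoxd at 32.5% to 38.5% and Hoxb at 15.8% to 18%.

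**Figure D4:**
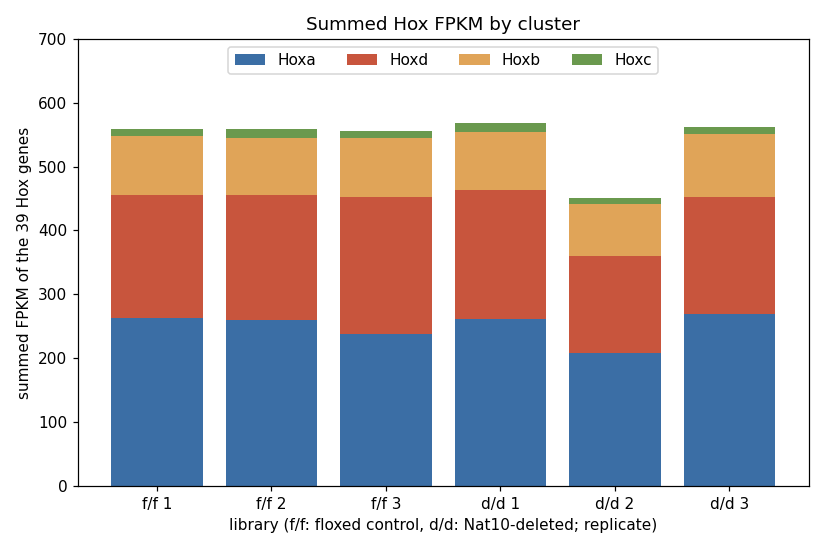
Summed FPKM of the 39 Hox genes in each library, stacked by cluster, with f/f for floxed control and d/d for Nat10-deleted. The total lies between 556 and 567 in 5 libraries and at 451 in deleted replicate 2.

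In whole uterus, fewer cells of a type and less RNA per cell cannot be told apart. Stromal cells are known to express Hoxa10 and Hoxa11 in this organ, so stromal markers are given beside the Hox values. All 8 stromal markers were detected and none was at 0. Their sum was 3319, 2972 and 3340 FPKM in controls and 2556, 3304 and 2520 in deleted uteri, so deleted replicate 2 lay within the control range on this sum. Changes of all 8 were below 0, with a median of -0.27, or -0.34 without deleted replicate 2. The Hox median was -0.07, or -0.03 without that library. The stromal markers did not move together in that library: Col1a1 was 765, 677 and 749.9 in controls and 394, 984 and 361 in deleted uteri, while Dcn was 1066, 1033 and 1115 in controls and 1159.5, 646 and 1197 in deleted uteri and Pdgfra was 78.6, 65.1 and 91.7 in controls and 58.3, 39.5 and 77.3 in deleted uteri. Collagen Col1a1 was thus highest, and the fibroblast genes Dcn and Pdgfra lowest, in deleted replicate 2. The 8 smooth muscle markers summed to 4017 to 4622 in controls and 3745 to 4796 in deleted uteri, with a median change of 0.00. The 8 epithelial markers summed to 627 to 742 and 716 to 816, with 7 changes above 0 and a median of 0.25. The 6 endothelial markers summed to 244 to 274 and 211 to 233, with all 6 changes below 0 and a median of -0.26. The 5 mesothelial markers summed to 59.6 to 71.8 and 56.0 to 66.4, and of the 4 tested 3 had changes below 0, with a median of -0.41, or -0.44 without deleted replicate 2. The 6 leukocyte markers summed to 22.8 to 39.5 and 23.8 to 33.8, with a median of -0.08 over the 4 tested, or 0.03 without deleted replicate 2. All 5 blood markers had changes below 0, with a median of -0.98, or -1.29 without deleted replicate 2. Among the tested markers of these lists, groups did not overlap, on the lower side, for 2 endothelial (Kdr, -0.47, and Tek, -0.20), 2 mesothelial (Msln, -0.51, and Lrrn4, -0.70) and 1 smooth muscle marker (Lmod1, -0.19), and on the higher side for 2 epithelial markers (Cldn7, 0.49, and Epcam, 0.26), where the shares over all genes tested were 4.6% and 6.12%. The mesothelial marker Krt5, too low to test, was also lower without overlap, at 0.572 to 2.79 in controls and 0.352 to 0.463 in deleted uteri. Sums of the 6 ovary and 4 oviduct markers were also lowest in deleted replicate 2, at 23.7 against 32.4 to 36.0 and at 11.02 against 16.3 to 20.4, and their median changes were -0.32 and -0.37, or -0.17 and -0.08 without that library. Most of the ovary sum was Foxl2, at 28.1, 28.9 and 26.7 in controls and 22.2, 18.1 and 24 in deleted uteri, without overlap (-0.37), and Inha at 5 to 9.24 (0.31). Zp3 was listed at 0 throughout, Nr5a1 was at most 0.0243 and Amh at most 0.683. Whether Foxl2, or Pax2 of the oviduct list, came from those tissues or from the uterus itself was not tested. The part of these markers in the Hox values was not tested.

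Hox proteins bind DNA with partner proteins of the Pbx, Meis and Pknox families, and these partners were detected over a wide range of levels, from Pbx4 at a mean of 2.34 FPKM to Meis2 at 121, beside a median of 13.4 over all tested genes. The list of 11 cofactor genes also held Pbxip1 and Hmbox1, which are not members of these families. All 11 were tested, 0 passed and 4, Hmbox1 among them, were lower without overlap, where the share over all genes tested was 4.6%. The median change was -0.04, and -0.08 without deleted replicate 2. Meis2 was at 105 to 139 FPKM, Pbxip1 at 54.2 to 74.7 and Meis1 at 43.5 to 55.4, and their log2 changes were 0.08, -0.04 and -0.02. Without deleted replicate 2 these were 0.21, 0.09 and 0.04. The 4 listed genes without overlap were Meis3, Pknox2, Hmbox1 and Pknox1, named after their values were seen. Meis3 was 10.1, 8.71 and 9.03 FPKM in controls and 6.4, 7.6 and 6.88 in deleted uteri (log2 change -0.37; limma p 0.0145, adjusted p 0.922). Pknox2 was 10.3, 11.6 and 10 in controls and 6.98, 9.64 and 7.21 in deleted uteri (-0.39). Hmbox1 and Pknox1 had changes of -0.26 and -0.11.

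Polycomb proteins keep Hox genes silent, and Trithorax proteins keep them active. Of 24 Polycomb genes, 0 passed, 4 were higher without overlap (6.12% of all genes tested), and the median change was 0.09, or 0.14 without deleted replicate 2. The highest were Rbbp7 at 122 to 176 FPKM, Rbbp4 at 105 to 155, Cbx6 at 79.8 to 111 and Phc2 at 40.3 to 47.3, with log2 changes of 0.14, 0.02, -0.21 and 0.11. Without deleted replicate 2 these were 0.00, -0.16, -0.20 and 0.15. The Polycomb genes without overlap were Mtf2 (0.34), Bmi1 (0.29), Pcgf6 (0.24) and Aebp2 (0.16), named after their values were seen. Mtf2, which guides a Polycomb complex to CpG islands, was 11.2, 11.7 and 11.3 in controls and 16, 15.1 and 13.1 in deleted uteri (limma p 0.0171, adjusted p 0.922). Deleted replicate 2 was the lowest library for 7 and the highest for 8 of the 24 genes. Named after their values were seen, the paired methyltransferase genes stood on opposite sides in that library. Ezh2 was 9.67, 8.06 and 8.94 in controls and 8.97, 22.5 and 6.99 in deleted uteri. Ezh1 was 25.4, 22.9 and 29 in controls and 28.5, 15.4 and 38.4 in deleted uteri, a change of 0.00, or 0.36 without that library. Of 14 Trithorax and H3K27 demethylase genes, 0 passed and 0 were without overlap, and the median change was -0.01. Dpy30, Psip1, Wdr5 and Men1, the highest of them, had changes of 0.17, 0.08, 0.06 and -0.07, or -0.02, -0.04, 0.04 and -0.09 without deleted replicate 2.

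Genes that induce or bound Hox domains were tested for 12 of 16 members. None passed, 1 was lower without overlap (4.6% of all genes tested), and the median change was -0.03, or -0.05 without deleted replicate 2. The highest were Maz (81 FPKM on average), Rad21 (68.9), Ctcf (33.7) and Rarg (31.4), with log2 changes of -0.02, 0.07, 0.14 and -0.19. Aldh1a2, which makes retinoic acid, was the gene without overlap, at 32.5, 28.7 and 28.8 in controls and 24, 26.1 and 23.2 in deleted uteri (log2 change -0.29; limma p 0.0297, adjusted p 0.922). Aldh1a1, a second enzyme that makes retinoic acid, had the opposite sign with overlapping groups, at 25.2, 12.8 and 15.3 in controls and 29.6, 35.6 and 22.1 in deleted uteri (log2 change 0.71; limma p 0.0283, adjusted p 0.922). The embryonic Hox inducers Cdx1, Cdx2 and Cdx4 were listed at 0 in all libraries.

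**Figure D5:**
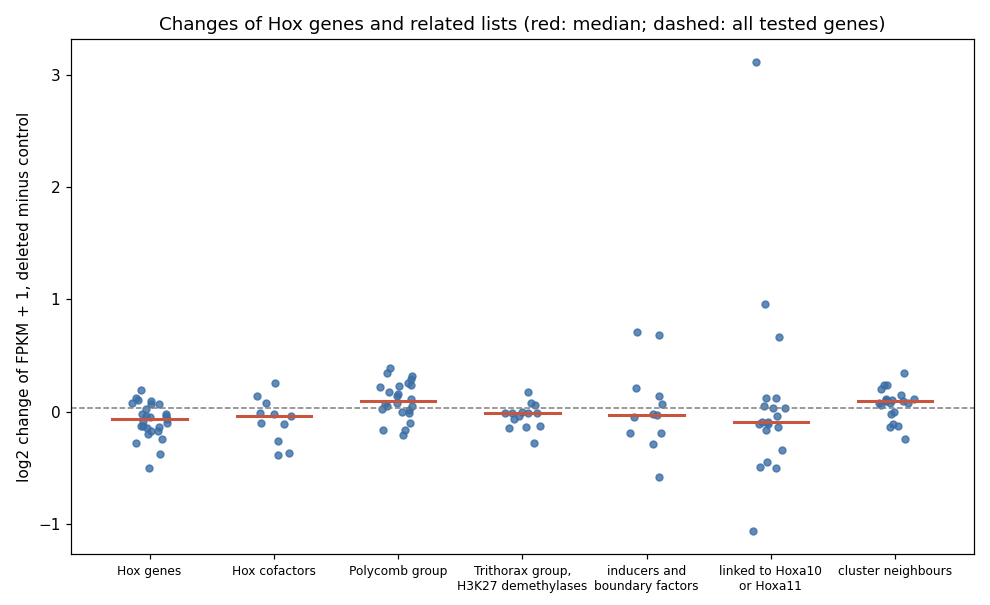
Log2 change of FPKM + 1 (vertical axis, Nat10-deleted minus floxed control) for the tested Hox genes, Hox cofactors, Polycomb and Trithorax genes, inducers and boundary factors, genes linked to Hoxa10 or Hoxa11, and cluster neighbours, 1 point per gene, with the list median in red and the median of all tested genes (0.03) dashed. Medians of these 7 groups lie between -0.09 and 0.09, and the highest and lowest points plotted are Cdkn1a and Pgr.

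Genes linked to Hoxa10 or Hoxa11 in uterine biology had changes on both sides of 0. Of 24, 20 were tested, 0 passed, 2 were higher and 4 lower without overlap (6.12% and 4.6% of all genes tested), and the median change was -0.09, or -0.08 without deleted replicate 2. The highest were Fkbp4, a chaperone of the progesterone receptor (-0.16), Msx1 (0.05), Esr1 (-0.14) and Nr2f2 (-0.11), all with overlapping groups. Without deleted replicate 2 their changes were -0.40, 0.20, -0.13 and -0.06. The 6 without overlap, named after their values were seen, were Cdkn1a (3.11) and Wnt7a (0.66) on the higher side, and Pgr (-1.06), Itgb3 (-0.50), Foxa2 (-0.49) and Wnt5a (-0.45) on the lower side. Pgr, the progesterone receptor gene, was 73.8, 62.2 and 60.3 FPKM in controls and 35.3, 25.4 and 32.6 in deleted uteri (limma p 0.000159, adjusted p 0.669). Cdkn1a, a cell cycle inhibitor, was 3.68, 7.23 and 6.27 in controls and 33.9, 116 and 43.4 in deleted uteri (limma p 0.000142, adjusted p 0.669). Without deleted replicate 2 the log2 changes of Pgr and Cdkn1a were -0.92 and 2.59. Itgb3, an integrin gene bound by HOXA10, was 7.94, 6.42 and 7.98 FPKM in controls and 4.25, 5.52 and 5.14 in deleted uteri (limma p 0.00821, adjusted p 0.922). Emx2, a gene that HOXA10 represses, was 38.7, 41.3 and 38.9 in controls and 38.6, 33 and 40 in deleted uteri, with overlapping groups. Beside these values Hoxa10 itself had a change of -0.05.

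Most other homeobox genes were low or listed at 0. Of 18 relatives of the Hox genes, 4 were tested, namely Dlx5, Dlx6, Meox1 and Meox2, and 0 passed. Without overlap 1 was higher (Dlx5) and 1 lower (Meox1), as were 6.12% and 4.6% of all genes tested. Dlx5, a homeobox gene of the uterine epithelium, was 21.6, 19.5 and 21.6 FPKM in controls and 29.5, 31 and 30 in deleted uteri (log2 change 0.51, SE 0.10; limma p 0.00111, adjusted p 0.778), while its neighbour Dlx6 was 11.9, 12.8 and 13.9 in controls and 16.2, 14.1 and 12.4 in deleted uteri (0.13). Meox1 had a change of -0.51. Evx1 and Evx2, the homeobox genes that adjoin the high-numbered ends of Hoxa and Hoxd, were 0 to 0.0677 and 0 to 0.0331 FPKM, so these neighbours of Hoxa13 and Hoxd13 were near 0 as well.

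Genes that flank the 4 clusters were mostly expressed. Of 25 listed neighbours 23 were in the tables and 21 were tested, 0 passed, 1 (Skap1) was higher without overlap (6.12% of all genes tested), and the median change was 0.09, or 0.05 without deleted replicate 2. The highest were Atp5g3, Atp5g2, Atp5g1 and Nfe2l2, at means of 309.6, 301, 98.3 and 56.9 FPKM, with changes of 0.11, 0.11, 0.10 and 0.08. Without deleted replicate 2 these changes were -0.11, 0.00, -0.21 and 0.19. Deleted replicate 2 was the highest library for 10 of these 21 genes, where it was the highest for 2 of the 27 Hox genes and for 30.1% of all tested genes. Of 20 transcripts listed as noncoding at the Hox loci, only 5730596B20Rik was matched, a gene that the annotation calls protein coding, at 0.182 to 0.843 FPKM.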

How the data were processed

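Poly(A) RNA from 3 floxed control and 3 Nat10-deleted uteri was analysed, and groups were read from the sample titles. The deposited values are FPKM per Ensembl gene, a unit inferred from the values and from Cufflinks 2.2.1, which is listed with HISAT2 2.2.1 and build mm10 per the submitters' processing notes. The annotation, gene filter and use of strand are not given in the sources used here. Absolute depth is unknown. Relative depth was taken from the most frequent ratio of low values to floxed control 1. No pair of libraries held identical values.

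Values were tested as log2(FPKM + 1) with limma 3.58.1 in R 4.3.3 (trend on, group as the only term), for genes with at least 1 FPKM in at least 3 libraries, two-sided with Benjamini-Hochberg adjustment. On simulated data for this comparison (10 simulations of 12640 genes), 85.3% of 200 genes changed by 1.5 log2 units were called. Of the calls, 4.21% were false. Whether these rates hold for the measured libraries was not tested. There Cdkn1a, with a log2 change of 3.11, was not called (limma adjusted p 0.669). The tested Hox genes had log2 changes of -0.50 to 0.19, and recovery of changes of that size was not tested. Intervals are 95% intervals of that fit. Coordinates and overlaps come from GENCODE release M21 (GRCm38, the sequence of mm10), by Ensembl identifier, and all 39 members matched. Python 3.11.15, pandas 2.3.3 and matplotlib 3.10.9 were used for tables and figures.

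All members were analysed, and of each other list the 4 genes of highest mean were to be named, with others only where stated; values of 1 member and 1 listed gene are not reported here. The members and lists were chosen with earlier results of these data known. Alternatives were 3 scalings, a pseudocount of 0.1, other low-value filters, no trend, array quality weights, a block for replicate number, and the removal of 1 library at a time.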

Additional observations from a re-analysis of the deposited data

How the results depend on the processing

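No Hox gene was called under any of the 15 alternatives run. The number of Hox genes with an unadjusted limma p under 0.05 was 2, and 0 to 3 under the alternatives; it was 0 without floxed control 2 and 0 without Nat10-deleted replicate 2. Over all genes, limma called 0, but 316 with array quality weights and 12 without Nat10-deleted replicate 2 (0 to 12 when leaving out 1 library). Array quality weights turned Hoxa10 to 0.03, Hoxd10 to 0.12, Hoxd8 to 0.10, Hoxd4 to 0.09, Hoxb5 to 0.06, Hoxb9 to 0.04, Hoxc8 to 0.12 and Hoxa2 to 0.09, and 11 of 27 Hox changes were then below 0, against 19. Hoxa9 became -0.01 with quantile normalization, -0.01 with median centring and -0.02 with upper-quartile scaling. The cause was not tested. Leaving out 1 library gave ranges across 0 for Hoxa10 (-0.12 to 0.07), Hoxa11 (-0.12 to 0.07), Hoxd10 (-0.10 to 0.09), Hoxa9 (-0.12 to 0.17), Hoxb8 (-0.05 to 0.22), Hoxb7 (-0.06 to 0.14), Hoxb2 (-0.06 to 0.20), Hoxb3 (-0.19 to 0.06), Hoxb5 (-0.07 to 0.07), Hoxb9 (-0.10 to 0.05), Hoxa5 (-0.02 to 0.26), Hoxc11 (-0.04 to 0.40), Hoxc8 (-0.19 to 0.10) and Hoxc4 (-0.06 to 0.36). The labels do not say whether replicate numbers pair the samples. Correlations of deviations were -0.341, -0.029 and 0.10 for libraries of the same number and -0.244 to 0.273 for the others. With 3 libraries per group these values cannot settle it. With a replicate block 0 genes were called and 2 Hox genes had an unadjusted limma p under 0.05. Count tests were not run because the values are FPKM. Hoxc8, Hoxa2 and Hoxc4 have no value where at least 1 FPKM was required in every library. Absolute depth is unknown, so values near 0 carry no detection limit.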
